A study of Mus musculus with 9 samples.

Results

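Endothelial markers are genes whose transcripts come mainly from the cells that line blood and lymph vessels. The set described here holds 10 of them: Pecam1, Cdh5, Kdr, Flt1, Tek, Tie1, Vwf, Emcn, Plvap and Cldn5. They were chosen by name, and every probe whose transcript accession maps to one of these symbols was taken, which gave 13 probes of the 41174 on the array. After 1 probe was kept for each gene, all 10 were measured, among 21094 features tested. Total RNA came from colonic mucosa of ICR mice, an outbred stock. The labels call this mucosa normal and give no age. Every group had been given the colon carcinogen 1,2-dimethylhydrazine (DMH) under the skin, 20 mg/kg each week for 20 weeks, so no group was free of carcinogen. The groups were mice on a 3% calcium diet that had no tumors, mice on that diet that had tumors, and mice on a diet with 1.24% calcium, called DMH after its label. For tumor status, the label of the DMH mice says control and no more. Each group had 3 arrays of 1 color. The labels do not tie the arrays of a group to separate mice, so the replicate error behind each p-value may be technical.

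Endothelial cells are held together by junctions in which VE-cadherin (Cdh5), PECAM-1 (Pecam1) and claudin-5 (Cldn5) bind like molecules on the neighbouring cell. They respond to vascular endothelial growth factors through the receptors VEGFR2 (Kdr) and VEGFR1 (Flt1), and to angiopoietins through TIE2 (Tek), with TIE1 (Tie1) as its partner. In the intestinal mucosa, dense capillaries with small pores spanned by diaphragms run beneath the epithelium and carry absorbed solutes away.

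RefSeq promoters were given for 6 of the 10 genes. Those of the 4 receptor genes are printed for a split between the high calcium groups. Kdr and Tek, receptors of different ligands, both differed there, whereas Flt1 and Tie1, their relatives, did not pass the test. The split rests on the brightest probe of each gene and on a fit without the slide of the arrays. With the slide as a block (below) neither Kdr nor Tek passed, and a dimmer Flt1 probe did pass without it. Each line is the 250 bases before the gene's start in RefSeq's GRCm38.p6 assembly, read 5′ to 3′ on the gene's strand. Capitals mark GGAA or its reverse complement TTCC, the core letters recognised by ETS factors, a family active in endothelial cells.
Kdr (chr5:75978456-75978705, minus strand): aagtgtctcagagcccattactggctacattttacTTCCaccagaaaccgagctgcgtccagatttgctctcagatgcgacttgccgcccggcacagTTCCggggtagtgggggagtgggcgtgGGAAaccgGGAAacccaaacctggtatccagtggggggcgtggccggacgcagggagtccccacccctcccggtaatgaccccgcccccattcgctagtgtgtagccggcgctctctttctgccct
Tek (chr4:94739039-94739288, plus strand): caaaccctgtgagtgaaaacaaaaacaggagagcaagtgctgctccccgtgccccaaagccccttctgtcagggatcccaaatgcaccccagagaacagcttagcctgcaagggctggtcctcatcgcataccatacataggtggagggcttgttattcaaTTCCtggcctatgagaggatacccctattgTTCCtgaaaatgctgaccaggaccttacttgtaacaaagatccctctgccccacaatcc
Flt1 (chr5:147726012-147726261, minus strand): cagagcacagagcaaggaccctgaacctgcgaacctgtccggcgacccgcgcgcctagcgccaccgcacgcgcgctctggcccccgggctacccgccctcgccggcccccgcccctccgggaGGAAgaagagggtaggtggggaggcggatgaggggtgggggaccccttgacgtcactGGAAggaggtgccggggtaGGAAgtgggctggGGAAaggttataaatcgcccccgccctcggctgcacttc
Tie1 (chr4:118489850-118490099, minus strand): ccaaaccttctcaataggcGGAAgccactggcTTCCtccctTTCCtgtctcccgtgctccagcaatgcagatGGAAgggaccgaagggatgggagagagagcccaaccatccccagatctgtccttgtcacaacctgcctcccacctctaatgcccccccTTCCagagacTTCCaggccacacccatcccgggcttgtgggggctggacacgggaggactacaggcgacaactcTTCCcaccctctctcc
GGAA, counted on both strands, occurred 4 times before Kdr, 2 times before Tek, 4 times before Flt1 and 7 times before Tie1. It also occurred 4 times before Emcn and 0 times before Cldn5. It was in 93.4% of 32851 such windows, with a median of 3 matches each, so its presence is common to most promoters. The longer AGGAAG, which contains GGAA and was likewise counted on both strands, was in 3 of the 6 windows (Emcn, Flt1 and Tie1) and in 29.5% of all windows. GGGCGG, a GC box on either strand, was in 3 of the 6 (Kdr, Flt1 and Cldn5) and in 32.7% of all windows. TATAAA, counted on both strands, was in that of Flt1 alone among the 6, and in 12.4% of all windows. AGGAAG was in neither the window of Kdr nor that of Tek. These are matches of letters, and a link of any motif to the differences between groups was not tested.

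A level is given here as log2 of the processed signal minus the 75th percentile of its array, so 0 is the signal at that percentile. Levels of different probes cannot be compared with each other, because each probe has its own response. The share of probes well above background was 61.1 to 73.8% over the arrays, and no spot was saturated. All 10 genes were well above background on all 9 arrays, so endothelial transcripts were detectable in every sample. The arrays lay on 3 slides. Slide 1 carried all arrays of the group without tumors together with DMH replicate 1. Slide 2 carried the other DMH arrays together with replicates 1 and 2 of the group with tumors, whose replicate 3 was alone on slide 3. Over all features, replicates 1 and 2 with tumors correlated at 0.996 with each other (Pearson r). Replicate 3 with tumors correlated at 0.967 with each of them and at 0.975 with DMH replicate 1, so it was less like its own group. Replicate 1 with tumors correlated at 0.982 with DMH replicate 3 on its slide. Because no slide held both high calcium groups, values with the slide as a block, which links them through the DMH arrays, stand beside the others. Both diet comparisons share the same DMH arrays, and in bulk tissue fewer endothelial cells and less RNA per cell cannot be told apart.

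The endothelial genes as a group stayed close to their DMH levels on the high calcium diet. Excluding Cdh5, the largest difference of any of the other 9 genes from DMH was 1.19-fold without tumors and 1.23-fold with tumors. The levels of the 10 genes were also taken out of log2 and summed. The sums ran from 11.6 to 13.4 times the 75th percentile without tumors, 11.8 to 12.5 with tumors and 11.4 to 13.3 in DMH, so the 3 groups overlapped. The 13.4, from replicate 2 without tumors, holds only 9 genes, because the Cdh5 spot of that array was left out as an outlier. Such sums give most weight to the probes with the highest signal, Plvap and Vwf. These differed in opposite directions between the high calcium groups (0.39 and -0.34, without minus with tumors), so the overlap says little about the other genes. Over all 9 arrays a member's level spanned 0.44 to 1.15 log2 units with a median of 0.52, and 1 of the 10, Cdh5, spanned at least 1 unit. The median span over all features was 0.74, and 36.6% spanned at least 1 unit.

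**Figure D1:**
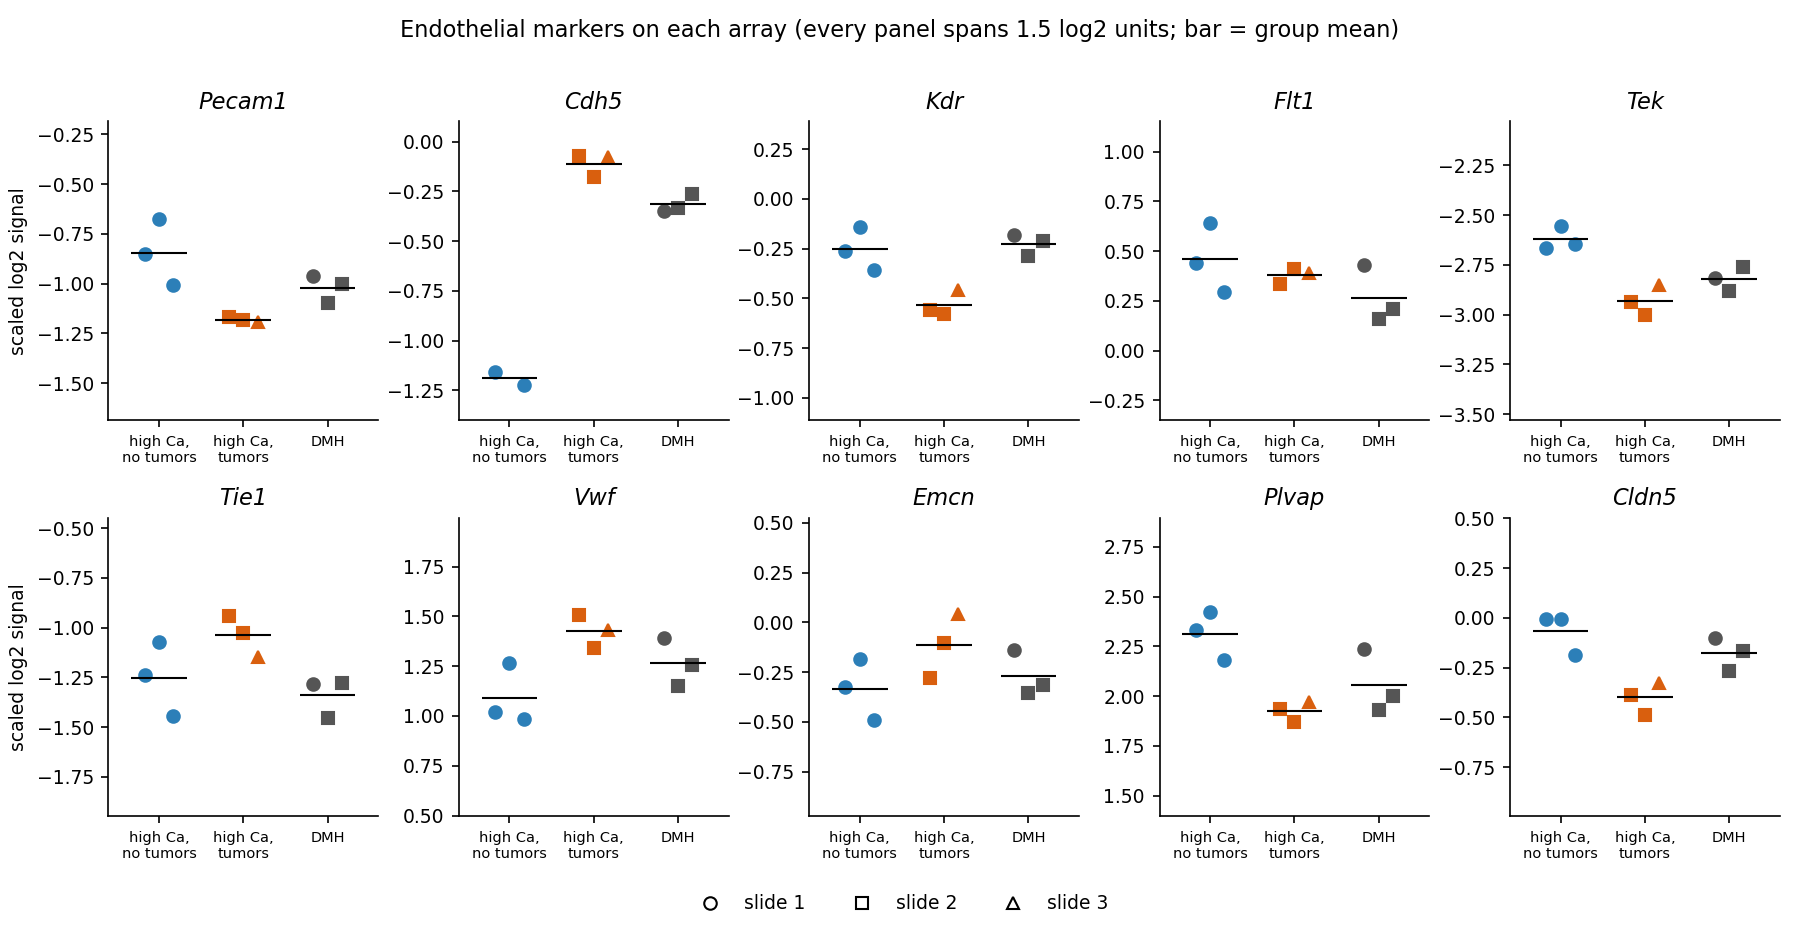
Level of each endothelial gene (log2 of the processed signal minus the array's 75th percentile) on every array, in the high calcium group without tumors, that with tumors and DMH. Cdh5 has 2 points without tumors because the spot of replicate 2 was left out as an outlier, and its levels are the most spread of the 10.

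Against DMH, 1 of the 10 genes passed the threshold when both high calcium groups were averaged (limma, Benjamini-Hochberg adjusted p under 0.05), and it was lower. Of all features 31.6% passed in that comparison, 17.8% higher and 13.8% lower. Without tumors 2 of 10 passed, 1 higher and 1 lower, where 35.7% of all features did (18.4% higher, 17.3% lower). With tumors 2 of 10 passed, again 1 in each direction, where 36.9% of all features did (21% higher, 15.9% lower). The members' share was thus below that of all features in each of the 3. The median difference of the 10 genes was 0.03 for both groups, 0.10 without tumors and 0.00 with tumors (log2), beside 0.07, 0.07 and 0.08 over all features.

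Between the high calcium groups more members passed. There 7 of the 10 differed, 5 of them higher without tumors and 2 lower, where 47.5% of all features passed, 20.6% higher and 27% lower. The arrays of the compared groups did not overlap for 7 members, as for 58.9% of all features. They did not overlap for 2 members between the group without tumors and DMH (57.7% of all features), 5 between the group with tumors and DMH (49.4%) and 0 between both groups together and DMH (19.9%). The median difference without minus with tumors was 0.18 over the 10 genes and 0.00 over all features. Of these 7 calls, 1 stood when slide was a block, that of Cdh5, where 6320 of all 21094 features passed.

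**Figure D2:**
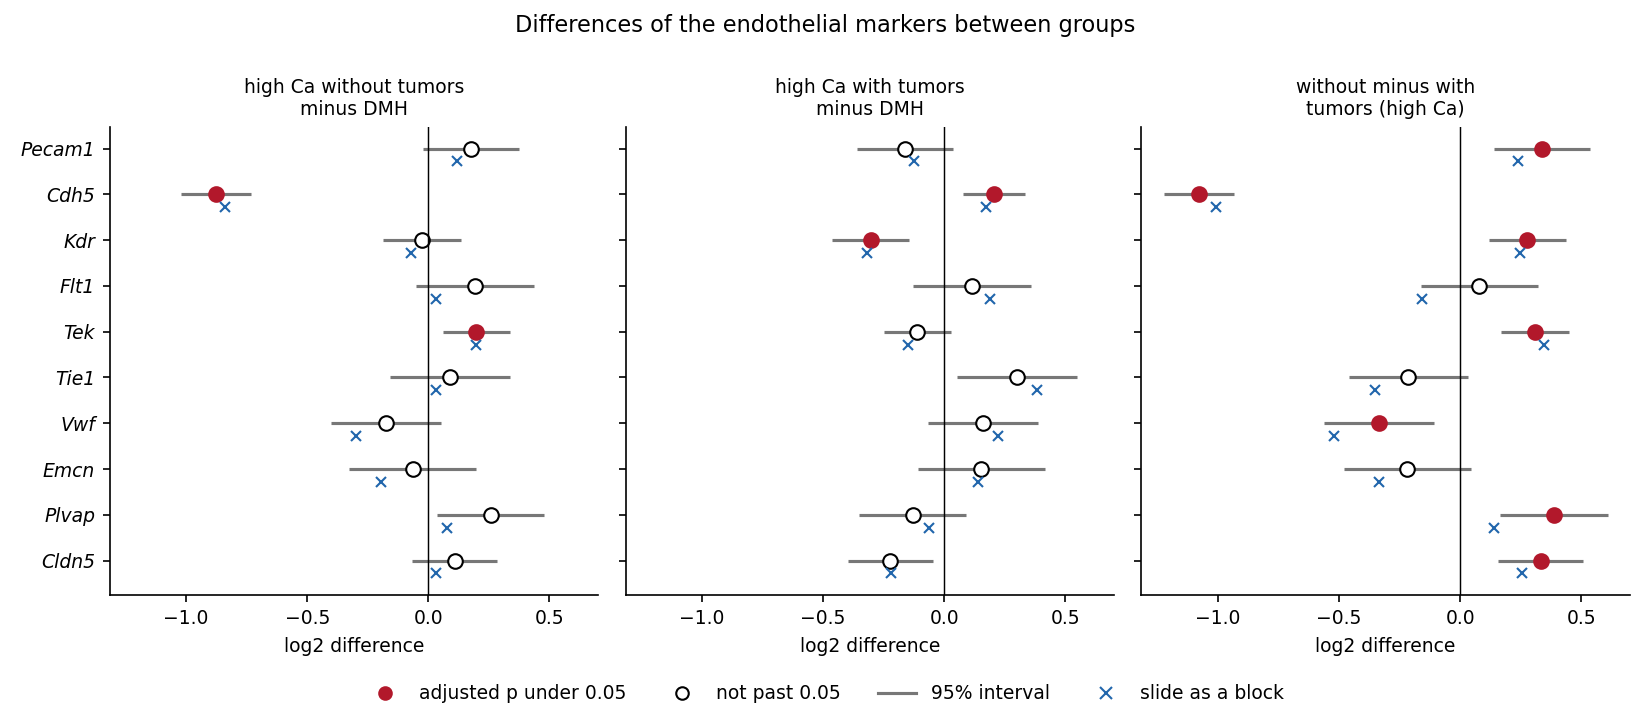
Log2 difference of each endothelial gene in both diet comparisons and between the high calcium groups. The 95% interval from limma is that of the fit without a slide term, and the difference with the slide as a block is marked without an interval. In both comparisons that hold the group without tumors, Cdh5 is the gene farthest from 0.

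Among the junction genes, Cdh5 encodes VE-cadherin, the adhesion molecule of endothelial adherens junctions. Its brighter probe measured -1.16 and -1.22 in replicates 1 and 3 without tumors, -0.07, -0.18 and -0.08 with tumors, and -0.35, -0.33 and -0.26 in DMH. The spot of replicate 2 without tumors was marked as an outlier by the scanner software, at a scaled level of 5.62, and was left out, so that mean has n = 2. The remaining arrays fell into 3 ranges that did not overlap, lowest without tumors, DMH between, and highest with tumors. Cdh5 was 1.83-fold lower without tumors than in DMH (log2 difference -0.87 ± 0.06 SE, limma adjusted p = 0.000152) and 2.11-fold lower than with tumors (-1.08 ± 0.06, adjusted p = 5.57e-05). With tumors it was 1.15-fold higher than in DMH (0.20 ± 0.05, adjusted p = 0.0256), a call that ended with the slide as a block (0.17, adjusted p = 0.0926). It also ended without replicate 1 or 3 with tumors or DMH replicate 1 or 2, at differences of 0.19 to 0.20 and adjusted p-values of 0.0564 to 0.0844. Normexp background correction (0.16, adjusted p = 0.146), no filter on dim probes (adjusted p = 0.0887) and the mean of both probes (0.19, adjusted p = 0.28) ended it too. The mean of both high calcium groups was lower than DMH by 0.34 ± 0.05 (adjusted p = 0.00322), a mean of differences that run in opposite directions.

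Within slide 1, the 2 arrays without tumors that hold a Cdh5 value stood 0.84 below DMH replicate 1 (-0.84). That replicate is the only DMH array on the slide, and these arrays are also part of the main test. With the slide as a block the difference between the high calcium groups was -1.01 (adjusted p = 0.00536). A dimmer Cdh5 probe showed much less. It measured -2.44, -2.13 and -2.45 without tumors, -1.54, -2.18 and -2.16 with tumors, and -2.11, -2.21 and -2.08 in DMH, and all 3 groups overlapped. Its difference without minus with tumors was -0.38 ± 0.18 (adjusted p over all probes = 0.121), and without tumors against DMH it was -0.20 ± 0.18 (adjusted p = 0.39). With the outlier spot kept, the difference of the brighter probe between the high calcium groups was 1.19 (adjusted p = 0.593), so the direction for Cdh5 rests on leaving that spot out. By a rule based on the smallest root mean square difference of centred levels, the symbols most like Cdh5 over its 8 arrays were Extl1 (0.053), Gpc1 (0.072) and Mnd1 (0.073), among 14179 symbols.

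Pecam1, an adhesion molecule at endothelial cell borders that is also present on platelets and leukocytes, measured -0.85, -0.68 and -1.01 without tumors, -1.17, -1.18 and -1.19 with tumors, and -0.96, -1.10 and -1.003 in DMH. Every array with tumors was below every other array. The group without tumors overlapped DMH. Pecam1 was 1.26-fold higher without than with tumors (0.34 ± 0.08, limma adjusted p = 0.0136), and neither group passed against DMH (adjusted p = 0.143 and 0.185). Without replicate 3 without tumors, that group passed (0.26, adjusted p = 0.0447). The call between the high calcium groups ended with the slide as a block (0.24, adjusted p = 0.314) and under normexp background correction (0.25, adjusted p = 0.0685).

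Cldn5, the claudin of endothelial tight junctions, measured -0.01, -0.01 and -0.19 without tumors, -0.39, -0.49 and -0.33 with tumors, and -0.10, -0.26 and -0.16 in DMH. The 3 arrays with tumors were again below all others, while the remaining groups overlapped. The gene was 1.26-fold higher without than with tumors (0.33 ± 0.08, limma adjusted p = 0.00859). With tumors it was 0.22 below DMH (-0.22 ± 0.08, 95% interval -0.40 to -0.05), with an adjusted p of 0.0518 that missed the threshold and became 0.0429 without replicate 3 without tumors and 0.0467 without replicate 3 with tumors. The slide block left a difference of 0.25 between the high calcium groups (adjusted p = 0.184). Thus Pecam1 and Cldn5 shared the order of the group means, without tumors, DMH, with tumors from high to low, and Cdh5 had the group without tumors lowest.

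Among the receptors, Kdr encodes VEGFR2, the main signalling receptor for VEGF-A. Its levels were -0.26, -0.14 and -0.36 without tumors, -0.56, -0.58 and -0.46 with tumors, and -0.18, -0.28 and -0.21 in DMH. The group with tumors lay below both others, which overlapped each other. Kdr was 1.23-fold lower with tumors than in DMH (-0.30 ± 0.07, limma adjusted p = 0.0111). The difference was -0.32 with the slide as a block (adjusted p = 0.0231) and -0.32 within slide 2 (adjusted p = 0.0215). It was also 1.21-fold higher without than with tumors (0.28 ± 0.07, adjusted p = 0.0124), a call that ended with the slide block (0.25, adjusted p = 0.17). For the group without tumors against DMH the difference was -0.03, with a 95% interval from -0.19 to 0.13. The mean of both high calcium groups was 0.17 below DMH (-0.17 ± 0.06), with an adjusted p of 0.0707 that became 0.049 with the slide as a block and 0.0363 without replicate 2 without tumors.

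Flt1, which encodes VEGFR1, a receptor that binds VEGF tightly and signals weakly, measured 0.44, 0.64 and 0.29 without tumors, 0.34, 0.41 and 0.39 with tumors, and 0.43, 0.16 and 0.21 in DMH. The 3 groups overlapped. Its difference between the high calcium groups was 0.08 ± 0.10 (95% interval -0.16 to 0.32, limma adjusted p = 0.563). No comparison of this probe passed. A dimmer Flt1 probe, well above background on 7 of 9 arrays, measured -4.93, -5.19 and -4.87 without tumors, -3.38, -3.67 and -3.27 with tumors, and -5.36, -3.40 and -3.55 in DMH. All 4 arrays of slide 1, DMH replicate 1 among them, were low on this probe, and all 5 arrays of slides 2 and 3 were high. Its difference of -1.56 ± 0.48 between the high calcium groups (adjusted p over all probes = 0.0285) was therefore not shared by the brighter probe and ran with the slide.

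Tek encodes TIE2, the angiopoietin receptor. It measured -2.66, -2.56 and -2.64 without tumors, -2.94, -3.00 and -2.85 with tumors, and -2.82, -2.88 and -2.76 in DMH. The group without tumors was above every other array, and the other 2 groups overlapped. Tek was 1.24-fold higher without than with tumors (0.31 ± 0.06, limma adjusted p = 0.00426) and 1.15-fold higher than in DMH (0.20 ± 0.06, adjusted p = 0.0357). With the slide as a block the differences were 0.34 (adjusted p = 0.0518) and 0.20 (adjusted p = 0.118), and within slide 1 the latter was also 0.20 (adjusted p = 0.182). Normexp background correction ended both calls (0.16 and 0.14, adjusted p = 0.383 and 0.459). Quantile normalization cut the difference from DMH to 0.06 (adjusted p = 0.634), and no filter on dim probes also ended that call (adjusted p = 0.0989). The call against DMH also ended on leaving out any of 7 of the 9 arrays, with adjusted p-values from 0.0523 to 0.118 (all but replicates 2 and 3 with tumors).

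Tie1, the orphan receptor that modulates TIE2, measured -1.24, -1.07 and -1.44 without tumors, -0.94, -1.03 and -1.15 with tumors, and -1.28, -1.45 and -1.28 in DMH. The arrays with tumors were above those of DMH, and each overlapped the group without tumors. It was 0.30 above DMH with tumors (0.30 ± 0.11, 95% interval 0.05 to 0.55), with a limma adjusted p of 0.0604 that missed the threshold. Within slide 2 the difference was 0.38 (adjusted p = 0.0384), and without replicate 2 or 3 without tumors, which changes only the shared spread, the adjusted p was 0.0407 or 0.0376. Its direction between the high calcium groups was opposite to that of Tek, at -0.21 ± 0.11 (adjusted p = 0.138).

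Among the secreted and surface proteins, Vwf encodes von Willebrand factor, the adhesive protein that endothelial cells store and that captures platelets. It measured 1.02, 1.27 and 0.99 without tumors, 1.51, 1.34 and 1.43 with tumors, and 1.39, 1.15 and 1.25 in DMH. The high calcium groups did not overlap, and DMH overlapped both. Vwf was 1.26-fold lower without than with tumors (-0.34 ± 0.10, limma adjusted p = 0.024), and the slide block gave -0.52 (adjusted p = 0.072). Without replicate 1 or 3 without tumors, or replicate 1 with tumors, the call ended (-0.30, -0.28 and -0.30, adjusted p = 0.0794, 0.0814 and 0.079), as it did with no filter on dim probes (adjusted p = 0.0522). A dimmer Vwf probe gave a like difference of -0.31 ± 0.14 (adjusted p over all probes = 0.117).

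Plvap encodes the protein of the diaphragms that span the pores of intestinal capillaries. It measured 2.33, 2.42 and 2.18 without tumors, 1.94, 1.87 and 1.97 with tumors, and 2.23, 1.93 and 2.00 in DMH. The high calcium groups did not overlap, while DMH replicate 1, on the slide of the group without tumors, was at the level of that group and the other DMH arrays at that of the group with tumors. Plvap was 1.31-fold higher without than with tumors (0.39 ± 0.09, limma adjusted p = 0.012). With the slide as a block the difference fell to 0.14 (adjusted p = 0.45). It was 0.26 above DMH without tumors (0.26 ± 0.09, adjusted p = 0.0706), and 0.08 within slide 1 (adjusted p = 0.676). Without DMH replicate 1 it was 0.35 (adjusted p = 0.0144).

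Emcn, the sialomucin endomucin of capillaries and veins, measured -0.32, -0.18 and -0.49 without tumors, -0.28, -0.11 and 0.04 with tumors, and -0.14, -0.35 and -0.31 in DMH. All 3 groups overlapped and no comparison passed, the difference between the high calcium groups being -0.22 ± 0.11 (95% interval -0.48 to 0.05, limma adjusted p = 0.151). Of the 10 genes, Flt1, Tie1 and Emcn were those with no call in any comparison.

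Kdr and Pecam1 were printed in 10 spots on each array, which separates spot error from differences between arrays. The SD between spots of an array was 0.036 to 0.089 log2 units for Kdr and 0.020 to 0.074 for Pecam1. The SD between arrays of a group was 0.05 to 0.11 for Kdr and 0.01 to 0.17 for Pecam1. The mean of 10 spots had a standard error of at most 0.028, so most of the spread between arrays of these genes lay outside spot error, except for Pecam1 in the group with tumors.

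**Figure D3:**
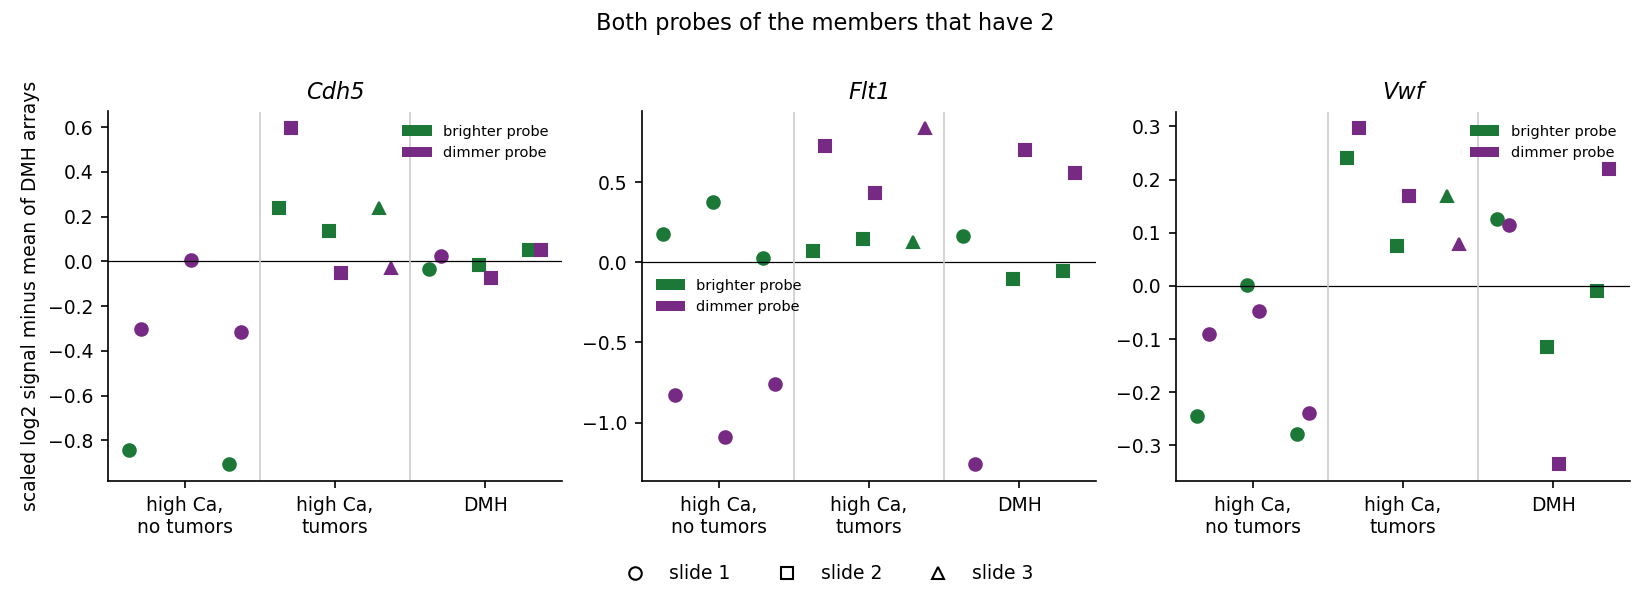
Levels on each array of both probes of Cdh5, Flt1 and Vwf, each probe as log2 difference from its own DMH mean, with markers by slide. The Vwf probes move alike, the Cdh5 probes differ in size, and the dimmer Flt1 probe separates slide 1 from the others.

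The ligands of these receptors were also measured. Of 8 VEGF and angiopoietin ligands listed, 7 were tested, and Angpt1 was not well above background on all arrays of any group. Against DMH 1 rose and 1 fell without tumors (median -0.09), and 3 rose and 0 fell with tumors (median 0.26). Between the high calcium groups 3 of the 7 were lower and 0 higher without tumors (median -0.45), where 47.5% of all features passed. Angpt2, an angiopoietin that can block TIE2, measured -2.24, -1.93 and -2.05 without tumors, -1.03, -1.08 and -1.14 with tumors, and -1.05, -0.93 and -0.96 in DMH. The group without tumors was alone in being low. Angpt2 was 2.13-fold lower there than in DMH (-1.09 ± 0.08, limma adjusted p = 0.000107) and 1.98-fold lower than with tumors (adjusted p = 0.000126), and both calls stood when slide was a block (-1.02 and -0.91).

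Vegfd, a ligand of the lymphatic receptor VEGFR3, was high in the group with tumors alone. It measured -1.13, -1.20 and -1.13 there, -2.23, -2.06 and -2.20 without tumors, and -2.01, -2.09 and -2.07 in DMH. It was 1.86-fold higher than in DMH (0.90 ± 0.06, limma adjusted p = 0.000109) and 2.01-fold higher than without tumors. Vegfc, another lymphatic ligand, was higher than DMH by 0.30 without tumors and by 0.26 with tumors (adjusted p = 0.00968 and 0.0166), the former with an adjusted p of 0.0908 with the slide as a block. The latter ended without replicate 1 with tumors or DMH replicate 2 or 3 (adjusted p = 0.0588, 0.0507 and 0.0588). Vegfa, the ligand of Kdr and Flt1, was 0.45 lower without than with tumors on its brightest probe (-0.45 ± 0.10, adjusted p = 0.00929). The 4 Vegfa probes disagreed in sign, and their mean differed by 0.06 (adjusted p = 0.613), so no direction is given for the gene.

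Of 14 co-receptors and other endothelial receptors, 3 rose and 2 fell without tumors against DMH (median -0.07), 2 rose and 1 fell with tumors (median 0.07), and 2 were higher and 4 lower without than with tumors (median -0.04). Ptprb, the endothelial phosphatase that removes phosphate from TIE2 and from VE-cadherin complexes, measured 0.58, 0.71 and 0.36 without tumors, -0.23, -0.32 and -0.25 with tumors, and -0.40, -0.56 and -0.41 in DMH. It was thus highest without tumors, 2.01-fold above DMH (1.00 ± 0.09, limma adjusted p = 0.000253) and 1.76-fold above the group with tumors (0.81 ± 0.09, adjusted p = 0.000443). Both calls stood with the slide as a block (0.95 and 0.74, adjusted p = 0.00713 and 0.0342). Calcrl, the adrenomedullin receptor, rose in both diet comparisons (0.57 and 0.45). Nrp1, a VEGF co-receptor, was 1.08 lower without than with tumors on its brighter probe and 0.72 higher on its other probe.

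Of 12 endothelial transcription factors tested, 1 rose and 5 fell without tumors against DMH (median -0.16). With tumors 2 rose and 1 fell (median 0.06), and 1 was higher and 7 lower without than with tumors (median -0.47). The factor that rose without tumors was Klf4 (0.59). Klf4 also rose with tumors, a call that ended on leaving out any of 8 of the 9 arrays. Whether its signal came from endothelial or other cells was not tested. Sox17, a factor of arterial endothelium, measured -1.21, -1.04 and -1.26 without tumors, -0.21, -0.28 and -0.27 with tumors, and 0.35, 0.15 and 0.33 in DMH. The 3 groups did not overlap. It was 2.72-fold lower than DMH without tumors (-1.45 ± 0.08, limma adjusted p = 2.62e-05) and 1.44-fold lower with tumors (-0.53 ± 0.08, adjusted p = 0.00207), and with the slide as a block the differences were -1.52 and -0.49 (adjusted p = 0.000974 and 0.0124). Gata2, a factor of endothelial and blood cells, was lower without tumors than in either other group (-0.65 and -0.67). Of the 12 factors, 4 were lower without than with tumors when slide was a block.

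Of 19 other endothelial surface and junction genes tested, 4 rose and 3 fell without tumors against DMH (median 0.05), 6 rose and 1 fell with tumors (median 0.25), and 1 was higher and 7 lower without than with tumors (median -0.18). In the last comparison 1 was higher and 3 lower when slide was a block. Ecscr, an endothelial surface protein that guides cell migration, measured 0.45, 0.29 and 0.27 without tumors, 1.45, 1.42 and 1.06 with tumors, and 1.35, 1.70 and 1.65 in DMH. It was low in the group without tumors alone, 2.34-fold below DMH (-1.23 ± 0.14, limma adjusted p = 0.000525). Mmrn2, a matrix protein that binds VEGF, rose in both diet comparisons (0.60 and 0.42), and Thbd, thrombomodulin, which turns thrombin to an anticoagulant role, fell in both (-0.76 and -0.41). Clec14a and Adgrf5 were lower without than with tumors by 1.53 and 1.47, differences that the slide block reduced to 0.02 and 0.30 (adjusted p = 0.953 and 0.738). The other Clec14a probe went the opposite way (0.91 ± 0.20, adjusted p over all probes = 0.00699). The Adgrf5 call also ended without replicate 1 or 3 of the group without tumors or 1 or 2 of that with tumors (adjusted p = 0.0573 to 0.0761).

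**Figure D4:**
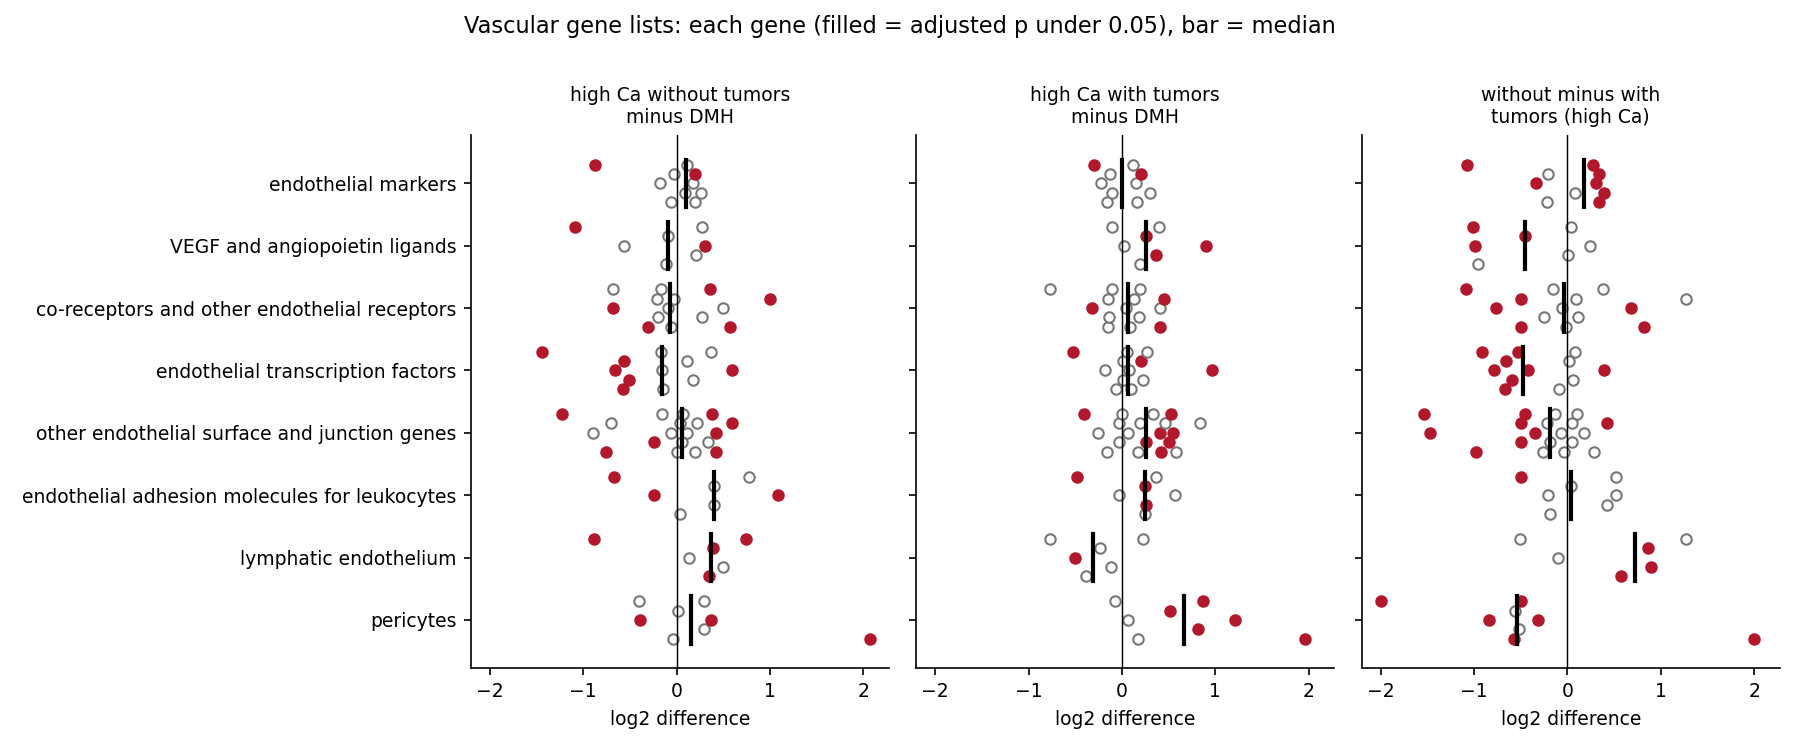
Log2 difference of every tested gene of the endothelial markers and of the related vascular lists, by comparison, with list medians and called genes marked. The markers are gathered near 0 against DMH apart from Cdh5, and genes of the other vascular lists spread farther.

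Mural and lymphatic cells accompany vessels. Of 8 pericyte genes tested, 2 rose and 1 fell without tumors against DMH (median 0.16), 5 rose and 0 fell with tumors (median 0.67), and 1 was higher and 5 lower without than with tumors (median -0.54). Rgs5, a regulator of G protein signalling in pericytes, measured -0.86, -0.71 and -0.95 without tumors, -3.69, -2.53 and -2.30 with tumors, and -2.92, -2.93 and -2.88 in DMH. It was high in the group without tumors alone, 4.2-fold above DMH (2.07 ± 0.32, limma adjusted p = 0.00257). Higd1b, another pericyte marker, was high in the group with tumors alone, at -2.61, -2.49 and -2.70 beside -4.89, -4.38 and -4.52 without tumors and -4.45, -4.61 and -4.63 in DMH. It was 3.89-fold above DMH there (1.96 ± 0.13, adjusted p = 0.00013), but under normexp background correction the difference was 0.65 (adjusted p = 0.0679). The list therefore did not move as 1 group.

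Of 6 lymphatic genes tested, 3 rose and 1 fell without tumors against DMH (median 0.37), 0 rose and 1 fell with tumors (median -0.31), and 3 were higher and 0 lower without than with tumors (median 0.72). Ccl21a, the chemokine by which lymphatic vessels draw dendritic cells and T cells, measured 3.61, 3.63 and 3.43 without tumors, 2.65, 2.77 and 2.66 with tumors, and 2.81, 2.84 and 2.80 in DMH. Every array without tumors was above all others, and the difference from DMH was 0.74 ± 0.07 (limma adjusted p = 0.000212). The brighter probe of Pdpn, podoplanin, was 0.40 above DMH without tumors (0.40 ± 0.08) and lower with tumors (-0.50 ± 0.08). The other Pdpn probe was at -0.40 ± 0.34 and -0.95 ± 0.34 (adjusted p over all probes = 0.372 and 0.0627), so no direction is given for the gene without tumors. Prox1, the factor that sets lymphatic identity, fell without tumors (-0.89 ± 0.18), so these genes did not share a direction. Of 7 adhesion molecules for leukocytes tested, 1 rose and 2 fell without tumors, 2 rose and 1 fell with tumors, and Icam1 fell in both (-0.67 and -0.48), with tumors not past the threshold without DMH replicate 2 or 3 (adjusted p = 0.0527 and 0.0501).

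**Figure D5:**
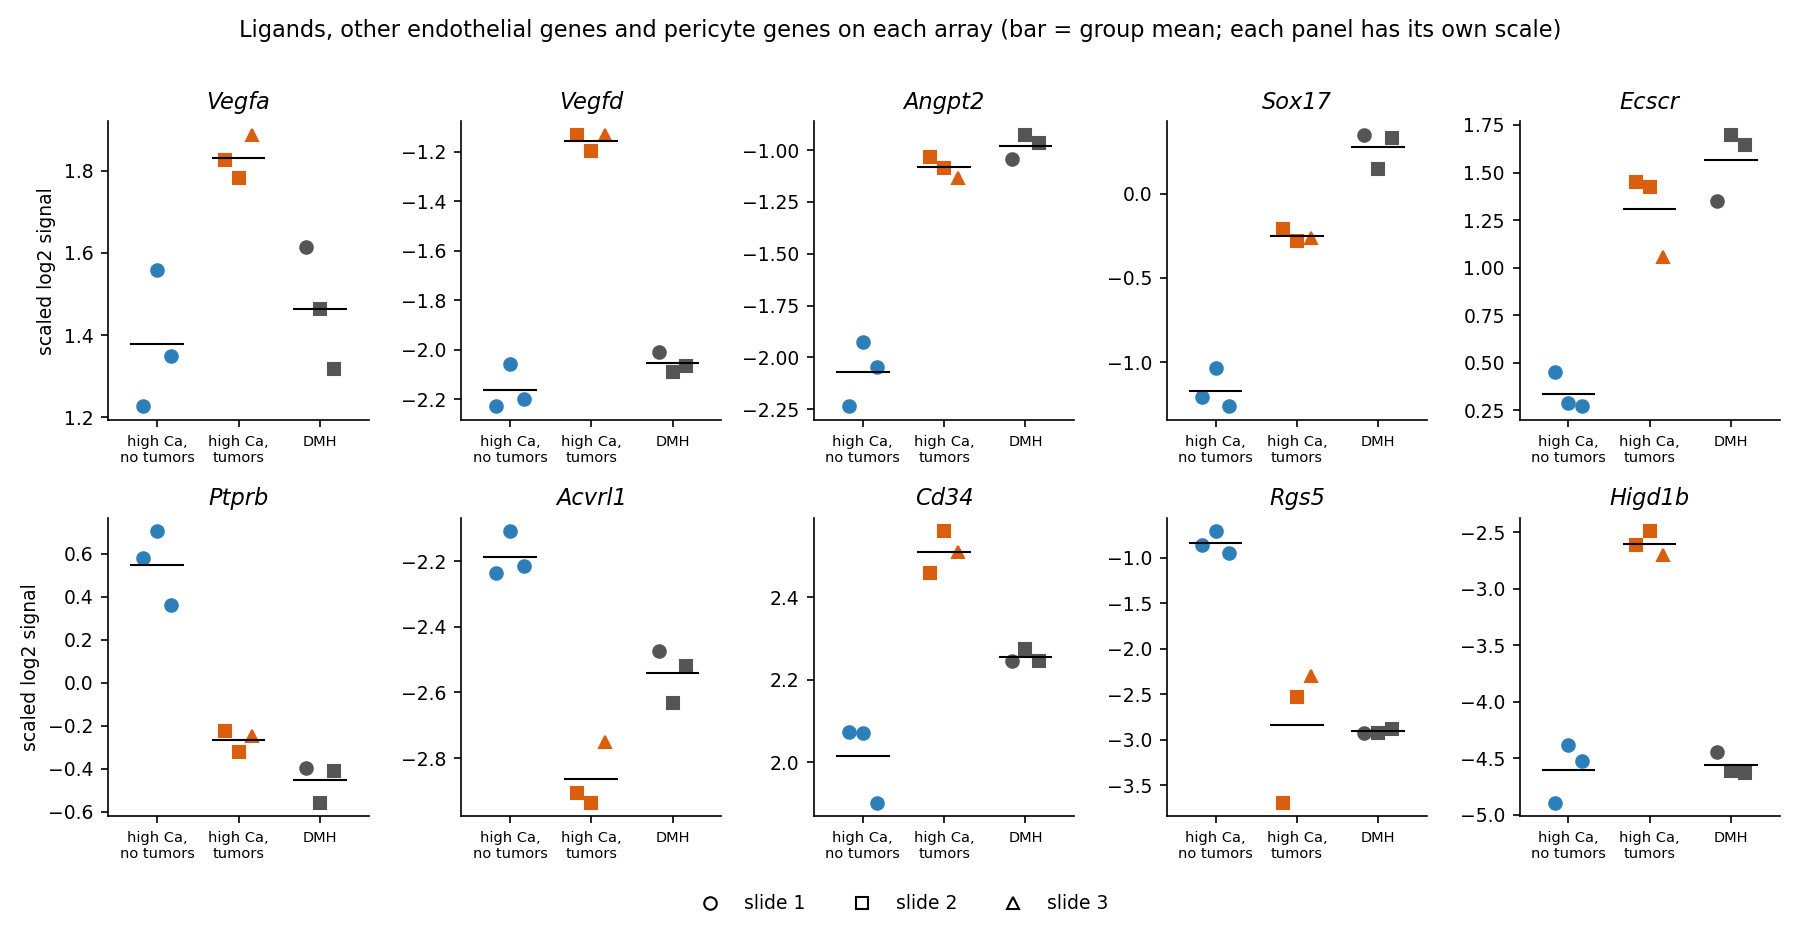
Levels on each array of selected vascular genes that are not members (log2 of the processed signal minus the array's 75th percentile). All are named in the text, and they are not in every case those with the largest differences of their lists. Angpt2, Sox17 and Ecscr are low and Ptprb and Rgs5 high without tumors.

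Markers of other cells in the samples also differed between groups, and their part in the results above was not tested. Blood genes were lower without tumors. The summed level of the 4 erythroid genes tested was 2.22 to 4.95 times the 75th percentile without tumors, 12.1 to 12.9 with tumors and 8.98 to 10.497 in DMH, and 3 of the 4 fell without tumors against DMH. Of 5 platelet genes tested, 2 fell without tumors, 1 fell with tumors and 0 rose in either, with summed levels of 1.35 to 1.58, 2.13 to 2.48 and 2.09 to 2.19 in the same order. Of 8 smooth muscle genes, 6 rose without tumors and 8 with tumors, with summed levels of 420 to 522, 595 to 775 and 224 to 385. Of 7 fibroblast genes, 4 fell without tumors and 4 rose with tumors, where 1 fell. All 6 adipocyte genes tested fell without tumors (median -4.43) and 5 fell with tumors (median -3.50), with summed levels of 3.97 to 6.83, 7.46 to 12.3 and 35.0 to 38.8. Of 7 leukocyte genes 0 rose in either group, and 2 fell without and 3 with tumors. Of 10 epithelial genes 3 rose and 1 fell without tumors, and 2 rose and 2 fell with tumors. Of 5 genes of enteric neurons and glia tested, 1 rose without and 4 rose with tumors, and 0 fell. No marker list of another cell type was at background in any group.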

How the data were processed

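The 9 samples were each measured on their own Agilent 1-color array. The deposited intensity values, per the file headers, are green-channel signals after background subtraction, made with Agilent Feature Extraction 10.5.1.1 (version per the submitters' processing notes), with annotation on mouse build mm9. The authors also deposited log2 values for 23726 probes. Compared with the scanner signals, this table proved to be centred on the median of each array, and the sources used here do not say how its probes were chosen.

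From the intensities, log2 of the processed signal minus each array's 75th percentile (572.5 to 819.2 in signal) was taken, without control and outlier spots. Probes were named by accession through a RefSeq table of GRCm38.p6, which named 25089 of 41174. A probe entered the test if every array of some group had it well above background (27207 probes), and the brightest kept probe stood for a gene. Differences of all 9 arrays were fitted by lmFit and eBayes of limma 3.58.1 under R 4.3.3. Two-sided p-values of each contrast (4 in all) were adjusted over its features by Benjamini-Hochberg and called under 0.05. The script was tested on simulated data. The number of arrays limits the precision.

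Members and gene lists were chosen with earlier results of these data known. All members are named, and of other lists up to 4 called genes per contrast by size, plus ligands and co-receptors. Slide was taken from the barcode that the scanner software recorded for each array. Alternatives were normexp background correction (offset 50), quantile normalization, the deposited log2 table, other filters, the mean of probes, only the compared groups in the fit, slide or replicate number as a block, and each array left out.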

Additional observations from a re-analysis of the deposited data

Results flagged for a closer look

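Several vascular genes moved in opposite directions in the high calcium groups against DMH, with a test of the difference itself. Cdh5 fell without tumors and rose with tumors on its brighter probe, the difference between the groups being -1.08 ± 0.06 (limma adjusted p = 5.57e-05, or -1.01 with the slide as a block, adjusted p = 0.00536). That difference depends on leaving out the outlier spot. The rise of Cdh5 with tumors (0.20 ± 0.05) ended with the slide as a block and under normexp background correction, so the opposite sign is not secure. Its dimmer probe passed in no comparison. Acvrl1, the endothelial receptor ALK1 for BMP9, rose without tumors and fell with tumors, with a difference of 0.68 ± 0.07 (adjusted p = 0.000314, or 0.63 with the slide as a block, adjusted p = 0.0107). Cd34, a sialomucin of capillaries and progenitor cells, ran the other way, with -0.49 ± 0.06 (adjusted p = 0.000538, or -0.48 with the slide as a block, adjusted p = 0.0316). Its fall without tumors against DMH (-0.24) ended without DMH replicate 2 or 3 (adjusted p = 0.0601 and 0.0511) and when slide was a block (-0.23, adjusted p = 0.113), and its rise with tumors (0.25) ended under normexp background correction (0.19, adjusted p = 0.0851). The brighter probe of Pdpn was higher without and lower with tumors, with 0.90 ± 0.08 (adjusted p = 0.000147, or 0.78 with the slide as a block, adjusted p = 0.0167), but its other probe was below DMH in both groups (-0.40 and -0.95, neither past the threshold). Under normexp background correction neither diet difference of Acvrl1 or Pdpn passed (Acvrl1 0.20 and -0.16, Pdpn 0.25 and -0.19), while their differences between the high calcium groups did (0.36 and 0.44). Both diet comparisons share the DMH arrays.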

How the results depend on the processing

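With the authors' deposited log2 values 0 members passed in any comparison. That table holds 11 of the 13 probes, not the brighter Cdh5 probe, and is centred on the array median. For both groups averaged against DMH 0 members passed with the mean of a gene's probes or with outlier spots kept, and 2 with the slide as a block. Without tumors 1 member passed under normexp, quantile normalization, no filter, the slide block, within slide 1, with outlier spots kept, or with replicate number as a block. With tumors 1 passed under normexp, no filter, the mean of probes, the slide block, replicate number as a block, outlier spots kept, or without replicate 3 with tumors and DMH replicate 1 together (chosen after seeing the data, as were within-slide values and outlier spots), and 4 with a filter on all 9 arrays. Between the high calcium groups 1 passed with the slide block. With 1 array left out the member counts ran from 1 to 2, 1 to 2, 1 to 4 and 6 to 7, and feature counts from 4320 to 7474, 5293 to 9427, 5974 to 8052 and 8272 to 12265, in the order both groups, without and with tumors against DMH, and without against with tumors. Normexp called 3180, 3879, 4156 and 6289 features and the authors' log2 values 2144, 3339, 2403 and 4783. Within slide 1 3704 were called, without replicate 3 with tumors and DMH replicate 1 9635 were called for both groups and 12618 without tumors against DMH, and with the slide block 6320 between the high calcium groups. The cause of these moves was not tested.

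Signs reversed as follows. For both groups against DMH, Pecam1 was -0.014 with quantile normalization, -0.15 with the authors' table and -0.0034 with the slide block. With the authors' table Flt1 was -0.0043, Tek -0.11, Emcn -0.11 and Plvap -0.095. Tek was -0.079 and Vwf 0.0058 with quantile normalization, Vwf 0.011 with the mean of probes, and Emcn -0.027 with the slide block. Without tumors against DMH the authors' table gave Pecam1 -0.011, Tie1 -0.10 and Cldn5 -0.079, and with tumors Flt1 -0.013. With the mean of probes Flt1 was -0.35 without tumors against DMH and -0.74 between the high calcium groups (adjusted p = 0.0225), and with the slide block -0.16 there. Cdh5 with outlier spots kept was 0.80, 1.40 and 1.19 for both groups and the group without tumors against DMH and between the high calcium groups. Aplnr (0.049, both groups), Pdpn (-0.0046, without tumors) and Vegfa (0.061, between the high calcium groups) reversed with the mean of probes. With 1 array left out, ranges that crossed 0 were those of Pecam1 (-0.034 to 0.049) and Vwf (-0.064 to 0.057) for both groups, Kdr (-0.083 to 0.025), Tie1 (-0.0013 to 0.18) and Emcn (-0.14 to 0.015) without tumors, and Flt1 (-0.012 to 0.16) between the high calcium groups. Without replicate 3 with tumors and DMH replicate 1 Vwf was 0.055 for both groups and Emcn 0.0010 without tumors. For listed vascular genes that are not members, only differences called in the main test were followed. Outside the ligands and co-receptors, only the largest of these calls were taken. Of their values, 1672 kept direction and call, 170 lost the call and 3 reversed. These counts describe calls picked from the same data, and not the listed vascular genes as a whole.

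Deviations of same-numbered samples from their group means correlated at -0.57 to 0.22. These correlations ran with the slide. Replicates 1 and 2 with tumors correlated at 0.22 to 0.55 with DMH replicates 2 and 3 on their slide, and at -0.57 and -0.46 with DMH replicate 1. They therefore cannot decide whether numbers paired the samples. The replicate block called 1, 1, 1 and 6 members in the 4 comparisons. For both groups against DMH, a fit of only the compared groups holds all arrays and was not repeated.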

Other observations

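Beyond the endothelial lists, smooth muscle genes rose on the high calcium diet. Des, the intermediate filament protein of muscle, measured 3.26, 3.32 and 3.10 without tumors, 3.25, 3.43 and 3.25 with tumors, and 2.53, 1.91 and 1.72 in DMH, so both high calcium groups were above DMH. It was 2.32-fold higher on high calcium (1.22 ± 0.17, limma adjusted p = 0.00174). Within the list 8 of 8 genes passed for both groups together, and with the slide as a block 1 of the 8 passed without tumors and 8 with tumors. Col1a1, a fibroblast collagen, ran in opposite directions, at -0.70 ± 0.06 without tumors and 0.79 ± 0.06 with tumors against DMH (adjusted p = 0.000237 and 0.000232).

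Hbb-bt, a beta globin, measured 0.22, 1.47 and 0.22 without tumors, 2.92, 2.79 and 2.79 with tumors, and 2.52, 2.31 and 2.43 in DMH. Pf4, a chemokine of platelets, measured 0.06, 0.00 and -0.09 without tumors, 0.96, 0.98 and 0.85 with tumors, and 0.81, 0.89 and 0.87 in DMH. Both were thus lower in the group without tumors than in either other group, on every array, beside endothelial markers whose summed level, weighted toward Plvap and Vwf, overlapped between the groups.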
